A study of Homo sapiens with 2 samples.

Results

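The extended major histocompatibility complex (MHC) is a gene-rich stretch of the short arm of chromosome 6. ZFX peaks there were defined by position, as peaks whose midpoint fell between 25 and 35 Mb of chromosome 6 (hg19) and outside 3 windows of histone genes. Of the 14471 peaks in the deposited list, 224 met this rule, out of 834 on chromosome 6. ZFX, a zinc finger transcription factor, had been mapped by ChIP-seq (sequencing of immunoprecipitated chromatin) in the established line DAOY, which derives from a human medulloblastoma. There were 2 samples of this line, chromatin precipitated with a rabbit polyclonal antibody against ZFX and sheared input chromatin without precipitation. All peaks belong to the 1 precipitated library, so neither replicates nor conditions could be compared, and input reads were not used here. The values below describe this library, and intervals cover counting error only and treat peaks as independent. Read depth is unknown, and copies of this chromosome arm in the line were not measured, so more copies cannot be told apart from more binding sites.

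The MHC encodes the proteins that display peptides to T cells. Class I molecules are present on most cells and display peptides from inside the cell, class II molecules are normally made by antigen-presenting cells, and the class III stretch between them holds complement, cytokine and heat shock genes among many housekeeping genes. The flank toward the chromosome end, the extended class I region, carries transfer RNA (tRNA) genes, butyrophilins, zinc finger genes of the ZSCAN and ZKSCAN families and a cluster of olfactory receptors. The flank on the other side holds housekeeping and chromatin genes. ZFX is known for binding close to the starts of active genes that are rich in CG dinucleotides.

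The gene content was read by gene order from RefSeq on GRCh38.p14. Its positions were not compared with the hg19 peaks, so no single peak is assigned to a gene here. Chromosome 6 carried 155 of the 465 tRNA genes in the table, ahead of chromosome 1 with 98. Of the 155, 122 lay between BTN3A2, a butyrophilin gene, and TRIM27, a gene of the tripartite motif family, among 53 protein-coding genes that included histone genes, 6 butyrophilins and 13 zinc finger genes. From ZNF311 to OR2H2 followed 17 protein-coding genes, of which 14 were olfactory receptors. The class I block, from GABBR1 to MICB, held 52 protein-coding genes with 6 HLA genes, and the class III block from MCCD1 to NOTCH4 held 59. The class II block from BTNL2 to HLA-DPB1 held 19 protein-coding genes, 13 of them HLA genes, followed by 16 genes from COL11A2 to KIFC1. The 300-base promoters of the protein-coding genes in these blocks differed in composition, with tRNA genes not included. The median number of CG dinucleotides was 13 in the tRNA and zinc finger block, 1 in the olfactory receptor block, 18.5 in class I, 13 in class III, 4 in class II and 16.5 in extended class II, and it was 22 over all protein-coding genes with a promoter in the table. The medians of the olfactory receptor and class II blocks were the lowest of the 6. The tRNA and zinc finger block mixes gene families, and its histone genes were kept in, unlike the histone peaks. Over chromosome 6, the median was 21 in 15 zinc finger promoters and 4 in 5 butyrophilin promoters.

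Composition also varied within a block, as in neighbouring promoters of the class II block picked after their values were seen. Both are shown as the 250 bases before the gene start on GRCh38.p14, with every CG dinucleotide in capitals. HLA-DMA encodes a chain of a chaperone that loads peptides onto class II molecules and lies on the minus strand. BRD2 encodes a bromodomain protein that reads acetylated histones and lies on the plus strand. The first sequence holds 3 CG dinucleotides and the second 27. The pair does not stand for the block, whose median was 4 in 300 bases, with 27 in the promoter of HLA-DPA1.
HLA-DMA: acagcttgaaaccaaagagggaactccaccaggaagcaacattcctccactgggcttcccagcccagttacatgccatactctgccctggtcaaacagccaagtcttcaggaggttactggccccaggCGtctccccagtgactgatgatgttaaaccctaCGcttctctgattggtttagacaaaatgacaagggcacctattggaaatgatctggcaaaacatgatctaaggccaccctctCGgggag
BRD2: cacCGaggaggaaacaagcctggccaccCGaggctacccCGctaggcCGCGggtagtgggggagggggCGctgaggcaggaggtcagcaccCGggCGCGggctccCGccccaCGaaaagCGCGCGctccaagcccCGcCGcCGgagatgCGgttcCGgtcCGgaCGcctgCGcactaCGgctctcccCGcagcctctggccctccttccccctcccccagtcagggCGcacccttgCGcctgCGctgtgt
The letters AGGCCT, reported as the core of the ZFX motif and the same on both strands, were searched in the same 300-base promoters. They occurred in 6 of 43 promoters of the tRNA and zinc finger block, 1 of 16 of the olfactory receptor block, 7 of 46 of class I, 2 of 53 of class III, 1 of 18 of class II and 4 of 14 of extended class II. Among the promoters of all protein-coding genes in the table the share was 11.03%. By block it ran from 3.77% in class III to 28.6% in extended class II, on both sides of that share. These counts are small and the differences were not tested, so no feature of the region is read from them. Promoters holding these letters include that of TAP2, which encodes a subunit of the transporter that carries peptides to class I molecules, and that of RXRB, a nuclear receptor gene. Both lie on the minus strand, are shown as the 250 bases before the gene start, and have AGGCCT in capitals, found 2 times in TAP2 and 1 time in RXRB.
TAP2: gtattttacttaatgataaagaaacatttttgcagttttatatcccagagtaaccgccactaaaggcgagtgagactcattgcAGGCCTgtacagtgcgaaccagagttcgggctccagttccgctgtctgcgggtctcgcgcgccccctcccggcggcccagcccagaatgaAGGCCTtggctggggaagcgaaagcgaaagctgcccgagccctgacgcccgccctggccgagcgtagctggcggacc
RXRB: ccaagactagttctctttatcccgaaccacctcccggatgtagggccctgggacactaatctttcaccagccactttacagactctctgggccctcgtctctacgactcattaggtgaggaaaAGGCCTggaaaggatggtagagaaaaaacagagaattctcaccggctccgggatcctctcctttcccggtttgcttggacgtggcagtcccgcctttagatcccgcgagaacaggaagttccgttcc
A match describes the reference letters and was not compared with peak positions.

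As a whole, the extended MHC held more peaks for its length than the rest of the chromosome, unevenly spread. The 224 peaks lay on 9.595 Mb, or 23.3 per Mb, against 3.66 per Mb on the rest of chromosome 6, where 588 peaks lay on 160.7 Mb. The ratio was 6.38, and the region held 26.9% (exact 95% interval 23.9% to 30.0%) of the peaks of the chromosome on 5.62% of its span. Over the whole list the density was 4.93 per Mb. Of 313 windows of 10 Mb with a peak, placed so that 25 to 35 Mb was 1 of them, none other held more than 210 peaks, a count reached on chromosome 19 between 5 and 15 Mb. The 224 peaks outside the histone windows thus ranked 1 among these windows, whose median count was 36. The histone windows themselves were denser still, with 22 peaks on 0.405 Mb, or 54.3 per Mb.

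Scores were near those of the list in the middle and lower at the top. The median score, in the authors' unit, was 102.5 (exact 95% interval of the median 93.7 to 120.0), against 102.2 on the rest of chromosome 6 and 108.9 for the list outside the window. At or above the median of the list, which 50.0% of all peaks reach by definition, scored 107 of the 224 (47.8%). A score of 200 or more was reached by 43 (19.2%, exact 95% interval 14.3% to 24.97%), against 27.9% on the rest of chromosome 6 and 28.4% of the whole list. The interval of the median score includes the median of the list. Both intervals treat peaks as independent, although 70 of the 224 had a neighbour within 1 kb, and the differences were not tested. The score cut of 200 was not among the results planned beforehand. Scores of 1000 or more were reached by 2 of the 224 (0.893%), against 2.10% of the list. Peaks at least 1000 bp wide numbered 12 (5.36%), against 9.24% of the list, and the median width was 428 bp, against 481 bp. Across the 224 peaks of this library, width and score had a Spearman correlation of 0.761, against 0.840 across the list. Both come from the same reads, so the value is a description.

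Among the 6 subregions, the densest had 2.30 times the peaks per Mb of the sparsest. From 25 to 28.3 Mb, the first stretch with tRNA and zinc finger genes, 73 peaks gave 25.2 per Mb. From 28.3 to 29.6 Mb, the second such stretch, 37 peaks gave 28.5 per Mb. Class I from 29.6 to 31.5 Mb held 49 peaks, or 25.8 per Mb, and class III from 31.5 to 32.3 Mb held 23, or 28.8 per Mb. These 4 neighbours lay close together, and the order between class III and the second tRNA stretch turned round when the borders were moved by 100 kb either way. Class II from 32.3 to 33.4 Mb held 22 peaks, or 20.0 per Mb, and the stretch beyond it to 35 Mb held 20, or 12.5 per Mb. Even the sparsest subregion was denser than the rest of chromosome 6.

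**Figure D1:**
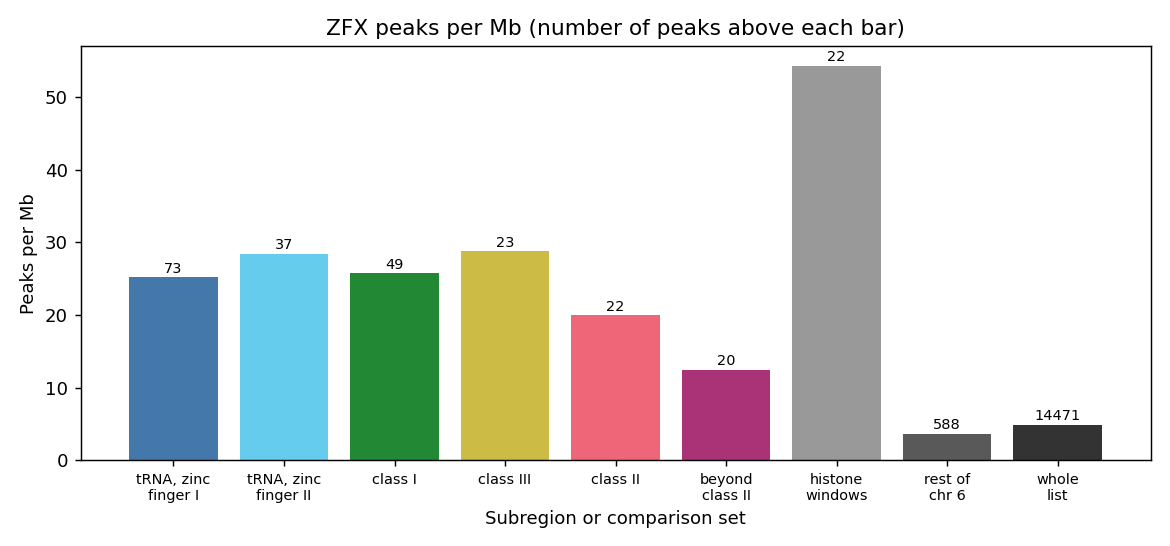
Peaks per Mb in each of the 6 subregions, in the histone windows that were left out, on the rest of chromosome 6 and in the whole list, with the number of peaks above each bar. The subregions lie between 12.5 and 28.8 per Mb, against 3.66 on the rest of chromosome 6 and 54.3 in the histone windows.

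Within the subregions the peaks came in clumps. In steps of 100 kb, 32 of 100 held none of the 224 peaks, and the 10 fullest held 77 of them (34.4%). Of the empty steps, the 3 from 26 to 26.3 Mb lie almost wholly in the first histone window, whose 15 peaks were left out. The fullest step was 26.5 to 26.6 Mb with 13 peaks, followed by 26.3 to 26.4 Mb and 27.5 to 27.6 Mb with 9 each. All 3 lie in the first tRNA and zinc finger stretch. In the second stretch, 35 of 37 peaks lay below 28.95 Mb, with 8, 7, 7 and 6 peaks in the 4 steps from 28.6 to 29 Mb. The fullest steps of class I, class III and class II held 6 peaks each, among them 30.5 to 30.6 Mb, 30.7 to 30.8 Mb, 31.7 to 31.8 Mb and 33.2 to 33.3 Mb. Isolated peaks were few. No neighbour within 50 kb was found for 15 of the 224 (6.70%), against 29.0% of the list, and of these 15, 6 lay in the first tRNA and zinc finger stretch and 4 beyond class II.

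**Figure D2:**
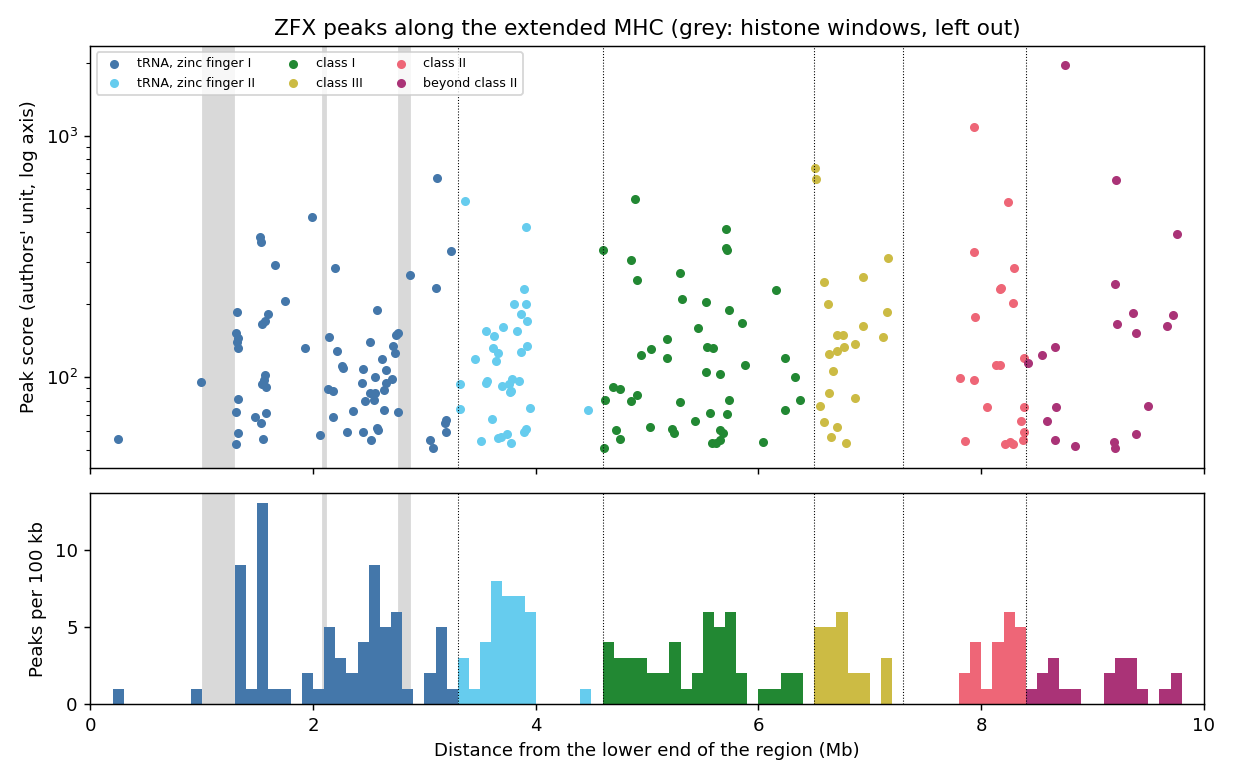
Score of each of the 224 peaks on a log axis (upper panel) and number of peaks per 100 kb (lower panel) against the distance from the lower end of the region in Mb, coloured by subregion. Grey bands mark the histone windows and dotted lines the borders of the subregions. Long empty stretches of up to 744 kb separate clumps of up to 13 peaks per 100 kb, and the highest score lies beyond class II.

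Between the clumps lay 20 peak-free stretches of more than 100 kb, 4.50 Mb in all when the histone peaks are counted as peaks. How well reads could be placed in these stretches was not examined. The longest, 744 kb at chr6:25248580-25992764, lay between a peak of score 55.3 (chr6:25248104-25248579) and one of 95.3 (chr6:25992765-25993195). The next, 642 kb at chr6:32164447-32806373, crossed the border of class III and class II. It began after a class III peak of score 310.1 (chr6:32163627-32164446) and ended at a peak of 99.5 (chr6:32806374-32806773). The class II window was therefore uneven. Below its centre at 32.85 Mb it held 1 peak, and above it 21, so its 20.0 per Mb averages an almost empty part and a dense one. No peak was listed from 32.3 to 32.8 Mb, and 15 of the 22 lay from 33.1 to 33.4 Mb. This window is set by position alone. How it divides between the class II and extended class II gene blocks was not determined.

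Another long stretch, 520 kb at chr6:28950143-29470573, lay in the second tRNA and zinc finger subregion. It was bordered by peaks of score 74.2 (chr6:28949863-28950142) and 72.9 (chr6:29470574-29471013). The peak on its upper side had no neighbour within 129 kb. Beyond class II, 349 kb without a peak (chr6:33842542-34191966) lay between peaks of 51.9 (chr6:33842335-33842541) and 53.7 (chr6:34191967-34192246), both near the lowest score of the list, 50.0. The longest stretch inside class III was 180 kb at chr6:31940977-32121428, between peaks of 162.9 (chr6:31940160-31940976) and 146.0 (chr6:32121429-32122133). In class I it was 154 kb at chr6:30882398-31036665, between peaks of 112.0 (chr6:30881869-30882397) and 53.7 (chr6:31036666-31037011). Inside class II it was 108 kb at chr6:32940396-33048490, between peaks of 176.8 (chr6:32939829-32940395) and 75.3 (chr6:33048491-33048744). On the rest of chromosome 6, peak-free stretches reached 6160 kb, with the centromere and gaps of the assembly not taken out.

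The strongest peak of the region lay beyond class II. It covered 1241 bp at chr6:33755855-33757095, scored 1958 and ranked 87 in the whole list. It stood alone, with 87.4 kb to the peak below it and 85.2 kb to the peak above it. In the same subregion, the widest peak, 1369 bp at chr6:34205489-34206857, scored 652.9 and had a neighbour of score 243.5 at a gap of 171 bp. Scores in this subregion started at 50.8, so it spanned nearly the whole range of the region. Of the 20 peaks beyond class II, 4 (20.0%) scored 200 or more, against 28.4% of the list.

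Class II held the second peak in order of score. It was also the widest of all 224, with 1962 bp at chr6:32937085-32939046 and a score of 1082, rank 265 in the list. It was part of a run of 4 peaks over 4595 bp (chr6:32935801-32940395), whose scores in order of position were 97.4, 1082, 330.5 and 176.8. The gap between the second and the third of these was 1 bp, so the entries nearly touch. A further class II peak of 1064 bp at chr6:33239192-33240255 scored 528.4. A run of 3 weak peaks lay at chr6:33385251-33386802, with scores of 75.4, 120.0 and 59.5. Scores of 200 or more were reached by 7 of the 22 class II peaks (31.8%), against 28.4% of the list.

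Class III opened with its strongest peaks. The first peak of the subregion, 1414 bp at chr6:31509037-31510450, scored 736.1 and was also its widest. After a gap of 4729 bp followed a peak of 876 bp at chr6:31515180-31516055 with a score of 662.1. The next class III peak in order of score was the one at its upper end, with 310.1. No class III peak lacked a neighbour within 50 kb, and 6 of 23 (26.1%) scored 200 or more, against 28.4% of the list.

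In class I, the highest score was 545.0 for a peak of 675 bp at chr6:29894394-29895068. The widest, 1823 bp at chr6:30709579-30711401, scored 409.8 and had a neighbour of 341.7 at a gap of 315 bp (chr6:30711717-30712371). A score of 200 or more was reached by 11 of the 49 class I peaks (22.4%), against 28.4% of the list. The peak at chr6:29600227-29600892, score 336.2, counts as class I by only 559 bp, so a border shifted up by 100 kb would place it in the tRNA and zinc finger stretch.

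In the stretches with tRNA and zinc finger genes, 10 of 73 peaks in the first (13.7%) and 5 of 37 in the second (13.5%) scored 200 or more. The share of the list was 28.4%. In the first, the highest score was 666.6 over 1051 bp at chr6:28109434-28110484, followed by 461.8 over 1085 bp at chr6:26987214-26988298. Its widest peak, 1171 bp at chr6:26538073-26539243, scored only 165.6 and closed a run of 3 peaks over 2362 bp (chr6:26536882-26539243), whose other scores were 64.8 and 93.5. In the second, the highest score was 537.1 over 1072 bp at chr6:28366906-28367977, which was also its widest. These 10 peaks with the highest scores of the region fell in all 6 subregions, with 2 each in the first tRNA and zinc finger stretch, in class III, in class II and beyond it, and 1 each in the second such stretch and class I.

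Median scores by subregion overlapped widely. From 25 to 28.3 Mb the median was 95.3 (86.3 to 118.9) and from 28.3 to 29.6 Mb it was 96.5 (88.0 to 132.3). Class I had 100.01 (79.8 to 130.4), class III 137.7 (85.8 to 185.5), class II 105.8 (59.5 to 232.5) and the stretch beyond it 128.4 (65.7 to 180.0), each with the exact 95% interval of a median. Neighbouring medians in this order cannot be told apart at these numbers of peaks. Class III had the highest median in both score and width, at 535 bp, against 382 bp in the first tRNA and zinc finger stretch, the lowest median width.

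**Figure D3:**
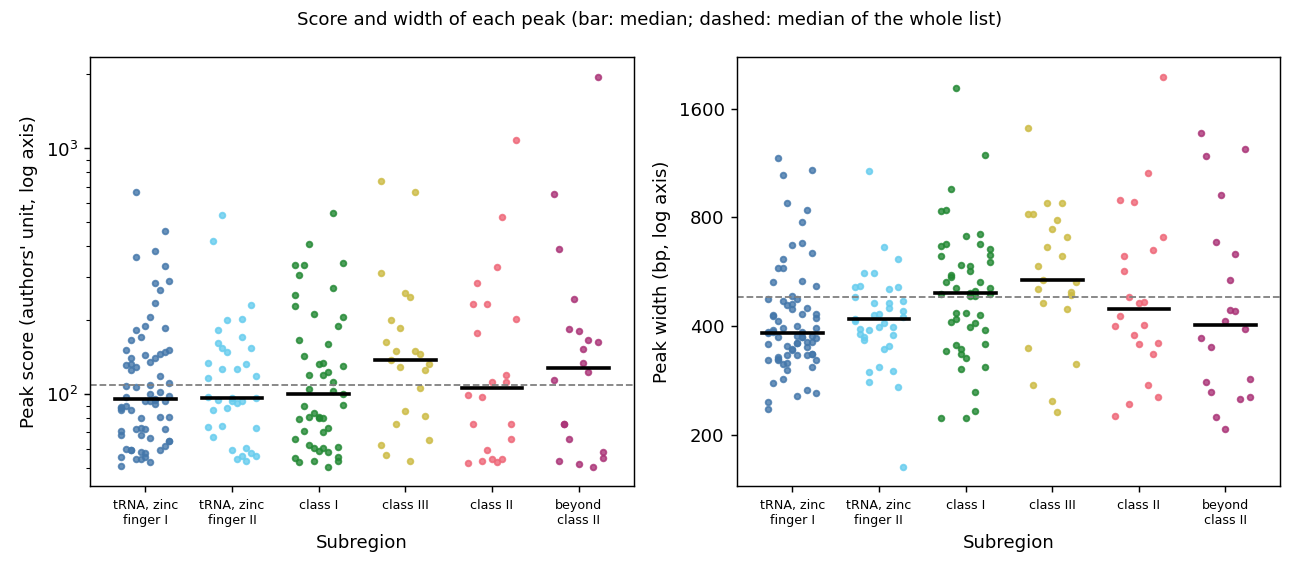
Score (left, log axis) and width in bp (right, log axis) of each of the 224 peaks by subregion. Black bars mark the median of a subregion and dashed lines the median of the whole list, 108.9 for score and 481 bp for width. The points of the first tRNA and zinc finger subregion gather around its median of 382 bp, while those of class III have a median of 535 bp.

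The peaks of the tRNA and zinc finger stretches were concentrated in a band of widths. Their full ranges were wide, at 235 to 1171 bp in the first and 163 to 1072 bp in the second. Widths of 300 to 449 bp made up 45 of 73 peaks (61.6%, exact 95% interval 49.5% to 72.8%) in the first stretch and 19 of 37 (51.4%, 34.4% to 68.1%) in the second. The share was 28.6% over the whole list and 31.8% on the rest of chromosome 6. In the upper subregions it was 32.7% in class I, 13.0% in class III, 31.8% in class II and 30.0% beyond it. Class III lay at the other end, with 3 of its 23 peaks in this range. The bounds of 300 and 449 bp were chosen after the widths had been seen, so these shares are a description. Their intervals do not allow for that choice. Within this width range, median scores were 90.9 in the first stretch and 92.3 in the second. In the upper subregions they were 61.6 in class I, 64.9 in class III, 65.95 in class II and 148.1 beyond it, the last from 6 peaks. Pooled, the median score of the 64 such peaks of both lower stretches was 91.6, with 68.3 and 120.7 as quartiles. It was 73.1 for the 32 such peaks of the 4 upper subregions and 72.5 for all 4132 in the list. For peaks of 450 bp or more the median was 182.7 in the first stretch (n = 21), 162.9 in the second (n = 14), 143.8 in class I (n = 29) and 149.4 in class III (n = 17). It was 232.5 in class II (n = 11) and 243.5 beyond it (n = 7), against 200.4 in the list (n = 7972). Width and score had a Spearman correlation of 0.581 in the first stretch and 0.659 in the second, against 0.847 in class I, 0.918 in class III, 0.832 in class II and 0.919 beyond it.

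Close pairs followed a different pattern. Of the whole region, 70 of the 224 peaks (31.2%, exact 95% interval 25.2% to 37.8%) had a neighbour within 1 kb, against 32.1% of the list, so the share was near the background although peaks were several times as dense. In the second tRNA and zinc finger stretch the share was 6 of 37 (16.2%, 6.19% to 32.0%) and in the first 17 of 73 (23.3%, 14.2% to 34.6%). In class III it was 12 of 23 (52.2%, 30.6% to 73.2%), in class II 11 of 22 (50.0%, 28.2% to 71.8%), in class I 18 of 49 (36.7%, 23.4% to 51.7%) and beyond class II 6 of 20 (30.0%, 11.9% to 54.3%). The median distance to the next peak ran otherwise, with 13.1 kb in the first tRNA and zinc finger stretch, 14.4 kb in the second, 22.7 kb in class I, 18.3 kb in class III, 18.3 kb in class II and 51.0 kb beyond it. The intervals of class III and of the second tRNA and zinc finger stretch overlapped slightly, and the difference was not tested. Of the 37 gaps of at most 1 kb that follow a peak of the region, 14 were at most 100 bp, with none of these among the 6 close gaps of class III or the 9 of the first tRNA and zinc finger stretch. Joining peaks at most 1 kb apart left 187 regions, 154 with a lone peak, 30 with 2 peaks and 3 with more.

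**Figure D4:**
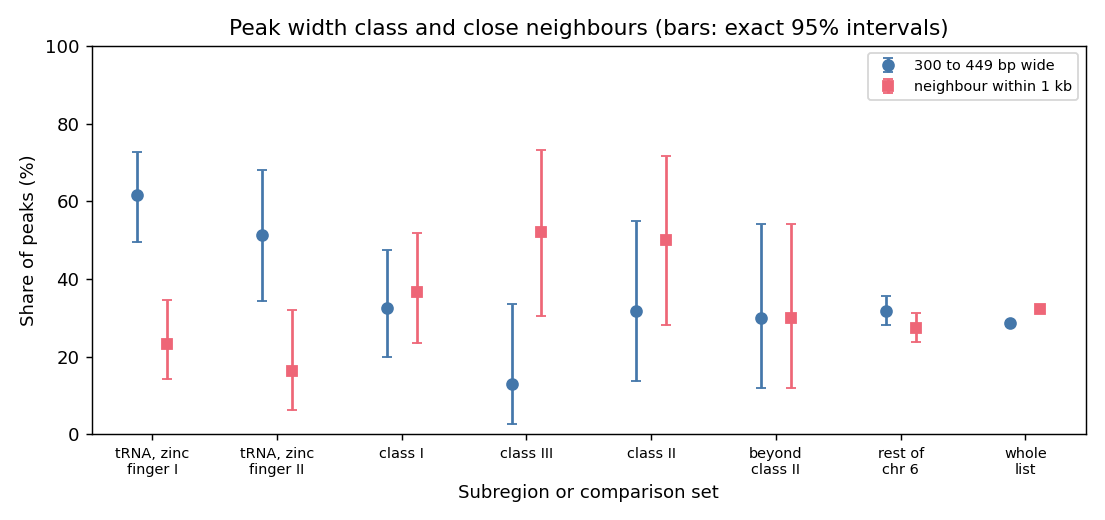
Share of peaks 300 to 449 bp wide (circles) and share with a neighbour within 1 kb (squares) in each subregion, on the rest of chromosome 6 and in the whole list, with exact 95% intervals as bars. The 2 tRNA and zinc finger subregions have 61.6% and 51.4% of peaks in the width range, and class III has 13.0% there and 52.2% with a close neighbour. The width range was chosen after the widths had been seen, which the bars do not allow for.

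Few peaks depended on where the rule drew its lines. The peaks nearest to 25 Mb lay 248 kb inside (score 55.3) and 225 kb outside it (score 163.9). Those nearest to 35 Mb lay 240 kb inside (chr6:34759627-34760806, score 390.5) and 60.3 kb outside it (score 103.7). At the histone windows the closest peak, chr6:27870070-27870906 with a score of 265.5, counted as outside by 488 bp, and the nearest peak inside that window lay 8.55 kb from the same edge with a score of 144.5. The other peaks nearest to a histone window from outside lay 6.37 to 24.9 kb away, with scores of 57.5 to 151.6. With the histone windows widened by 20 kb on each side, 218 of the 224 peaks were left.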

How the data were processed

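ZFX binding was profiled in the DAOY line with 1 precipitated library and 1 input, grouped by the antibody in the labels. The authors deposited a peak list of the precipitated library without a header. Its peak names carry the name MACS, with no caller version, cutoff or control sample stated there or in the labels. Per the submitters' processing notes, Bowtie2 2.0.0 and hg19 were used, without their roles, and hg19 was taken as the build. Each peak has a score, deposited by the authors without a stated unit, used only to describe and rank peaks within the list. Depth is unknown, since no read counts were analysed. Starts were taken as counted from 0 and are printed counted from 1.

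Peaks were assigned by midpoint. Density used the window less the histone windows, or the span between outermost peaks. Centromeres and gaps of the assembly were not taken out of these spans. Shares have exact Clopper-Pearson intervals, medians exact binomial intervals. No test was run. The counting was tested on simulated lists with planted peaks. Regions named were the 10 with the highest scores, the highest and the widest of each subregion, runs of 3 or more, and the peaks beside each longest peak-free stretch. A few further peaks at borders or beside these were chosen after their values were seen, as were the width range, the gene blocks, the motif and the promoters printed. The split of subregions at their centres, the 100 kb parts of class II and the pooling of lower and upper subregions were also chosen then. The region and lists were chosen with earlier results of these data known. The planned genes and sequences at peaks were not run, because no hg19 genome was used here. Of the gene lists set beforehand, all 8 class I, 13 class II, 5 antigen processing, 7 complement and cytokine, 3 heat shock and 11 chromatin and transcription genes were found on chromosome 6 in RefSeq (GRCh38.p14), with 19 zinc finger genes and 7 butyrophilins recognised by symbol. Promoters in the table (6, 12, 5, 5, 3, 10, 15 and 5 in this order) held AGGCCT in 0, 0, 1, 1, 0, 1, 2 and 0 genes. The share over all protein-coding genes with a promoter was 11.03%. Software was scipy 1.17.1, pandas 2.3.3 and numpy 2.4.6 under Python 3.11.15, with figures by matplotlib 3.10.9.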

Additional observations from a re-analysis of the deposited data

How the results depend on the processing

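Of 27 alternatives for 6 results, 18 kept the value within its exact 95% interval or, for the number of peaks and the longest stretch, which have none, within 1.5 times. Some of the 18 could hardly move, so their number is no measure of stability. Membership by any overlap gave 224 peaks and a ratio of 6.38 again. The 22 peaks of the histone windows were too few to pass the limit of 1.5 times. The ratio of peaks per Mb to the rest of chromosome 6 stayed between 6.26 and 6.72 in 5 alternatives and was 4.80 against all other peaks of the list. Taking only peaks at or above the median score left 107 of 224 peaks by construction, a median score of 0.764 of that outside the window, against 0.942 with all peaks, and 17.8% with a neighbour within 1 kb, since both then had to pass. At 5 kb that share was 54.9%. The densest subregion was class III with 10.3% of the peaks. It was the second tRNA and zinc finger stretch, with 18.2%, when close peaks were joined and, with 17.0%, when borders moved 100 kb up or down, and the first, with 38.6%, when histone windows were kept in. The order of the densest subregions is therefore not settled. The longest peak-free stretch was 773 kb among peaks at or above the median score and 744 kb in the other 2 alternatives, which could not change it. No paired analysis was possible because 1 library has peaks. Depth is unknown, so whether weak sites were missed cannot be told.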
